A study of Mus musculus with 2 samples.

Results

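Lymphotoxin and the lymphoid-organising genes are 10 genes through which lymphocytes, stroma and dendritic cells assemble lymphoid tissue. They were chosen by symbol and made up 10 of the 32245 gene symbols in the deposited tables: Lta, Ltb, Ltbr, Cxcl13, Cxcr5, Ccl19, Ccl21a, Ccr7, Tnfsf13b and Tnfrsf13c. They were described in single-cell RNA from 2 mouse pancreatic tumors, with 1 library per group and therefore no replicate. The tumors grew from KPC cells, a mouse pancreatic cancer line, placed in the pancreas. One library came from cells with a control hairpin (KPC-shV) and the other from cells with a hairpin against Zeb1 (KPC-shZEB1). The study's text says that both tumors were treated with gemcitabine, a cytotoxic drug, which the labels do not mention. The KPC cells derive from a mouse with Cre under the Pdx1 promoter, and the methods speak of several hairpin lines without saying which was injected. The labels give neither strain nor age of the host mice.

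As background, lymphotoxin alpha and lymphotoxin beta form a membrane complex on lymphocytes that engages the lymphotoxin beta receptor on stroma. That receptor signals through the non-canonical NF-kappaB pathway and is known for inducing the chemokines CXCL13, CCL19 and CCL21 in lymph node stroma. CXCL13 draws B cells through CXCR5, CCL19 and CCL21 draw naive T cells and mature dendritic cells through CCR7, and BAFF, encoded by Tnfsf13b, keeps B cells alive through its receptor encoded by Tnfrsf13c. The same genes mark tertiary lymphoid structures, the lymph node-like aggregates found in some tumors.

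The library labelled KPC-shV kept 11398 cells after filtering, with 101201508 unique molecular identifiers (UMIs, 1 per captured RNA molecule) and a median of 3720 per cell. That labelled KPC-shZEB1 kept 12104 cells, with 118943000 UMIs and a median of 4252. Paired values below are always given in this order. Levels are in CPM, the usual scaling of a gene's UMIs by all UMIs of the cells named. Parentheses hold 95% intervals, which take in counting error alone, and each ratio divides the second value of a pair by the first. Zeb1, the hairpin's target, was at 167 and 187 CPM in the tumour-like class, and its ratio of 1.12 (1.08–1.16) went against the label. Every direction below is therefore between 2 labelled libraries. The lymphocyte classes differed in size between them. B-like cells numbered 291 and 1226, T-like cells 404 and 1272, and mature dendritic-like cells 37 and 101. Fibroblast-like cells numbered 361 and 378, and endothelial-like cells 123 and 82. Of all barcode sequences, 46 occurred in both libraries.

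Several members are neighbours in the genome. Ltb (ENSMUSG00000024399, chr17:35194439-35196320, plus strand, GRCm38) and Lta (ENSMUSG00000024402, chr17:35203165-35205351, minus strand) flank Tnf, with 3060 bases between Ltb and Tnf and 1157 bases between Tnf and Lta. Ccl19 (ENSMUSG00000071005, chr4:42754525-42756577) and Ccl21a (ENSMUSG00000094686, chr4:42772860-42773993) are both on the minus strand, 16282 bases apart, inside the annotated span of the plus-strand gene 4930578G10Rik. Near-identical copies of Ccl21a exist in the mouse genome. In the tables the rows of Ccl21b, Ccl21c, Gm13304 and Gm10591 were at 0 in every barcode and that of Gm21541 held 3 and 6 UMIs, so reads that match several copies may be missing and the Ccl21a level is uncertain. Cxcr5 (ENSMUSG00000047880, chr9:44511787-44561877, minus strand) spans 50091 bases in the GENCODE annotation against 14658 in RefSeq, and overlaps Bcl9l on the other strand. The remaining members are Cxcl13 (ENSMUSG00000023078, chr5:95956951-95961068, plus strand), Ltbr (ENSMUSG00000030339, chr6:125306571-125313885, minus strand), Tnfsf13b (ENSMUSG00000031497, chr8:10006467-10039072, plus strand), Ccr7 (ENSMUSG00000037944, chr11:99144196-99155077, minus strand) and Tnfrsf13c (ENSMUSG00000068105, chr15:82221743-82224369, minus strand).

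The promoters of the 3 stromal chemokines are shown because Ccl21a was highest in endothelial-like cells and Cxcl13 and Ccl19 in fibroblast-like cells of the same tumors. Each window runs from 250 bases before to 50 bases after the start site (RefSeq, GRCm38.p6) and is written along the gene. Capitals mark the letters ATAAAT on either strand, a motif picked after these sequences had been read. It occurred in the windows of 3 of the 8 members that had a window in that table, which are the 3 shown, and in 13.7% of all 32851 windows of that length.
Cxcl13, chr5:95956689-95956988, plus strand: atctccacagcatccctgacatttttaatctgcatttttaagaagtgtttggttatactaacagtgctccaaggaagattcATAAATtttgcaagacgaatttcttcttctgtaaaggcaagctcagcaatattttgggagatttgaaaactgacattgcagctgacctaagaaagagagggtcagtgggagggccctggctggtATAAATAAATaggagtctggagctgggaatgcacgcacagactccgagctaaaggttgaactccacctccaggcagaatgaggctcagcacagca
Ccl19, chr4:42756316-42756615, minus strand: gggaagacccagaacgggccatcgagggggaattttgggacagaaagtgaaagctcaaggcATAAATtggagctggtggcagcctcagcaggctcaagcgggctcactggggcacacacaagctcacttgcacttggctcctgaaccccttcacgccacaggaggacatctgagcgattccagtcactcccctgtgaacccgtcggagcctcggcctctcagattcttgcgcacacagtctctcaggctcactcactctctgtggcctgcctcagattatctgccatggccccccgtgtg
Ccl21a, chr4:42773942-42774241, minus strand: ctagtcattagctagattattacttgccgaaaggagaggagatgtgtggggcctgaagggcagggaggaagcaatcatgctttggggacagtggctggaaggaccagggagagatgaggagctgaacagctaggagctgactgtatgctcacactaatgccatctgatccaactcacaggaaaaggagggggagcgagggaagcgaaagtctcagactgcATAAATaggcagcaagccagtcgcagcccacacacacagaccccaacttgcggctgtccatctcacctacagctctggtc
The match in Ccl21a begins 30 bases before the start site, that in Ccl19 189 bases before it, and those in Cxcl13 at 169, 45 and 41 bases before it. A second motif, the kappaB core GGNNTTTCC on either strand, occurred in 1 of the 8 members, Ltb, 87 bases before its start, and in 5.82% of all windows. These are matches of letters and not measured binding sites.

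All 10 genes were detected, each with at least 30 UMIs over both libraries, and they fell into distinct cell classes. Lta and Ltb led in T-like cells, Cxcr5 and Tnfrsf13c in B-like cells, Ccr7 in mature dendritic-like cells, Cxcl13, Ccl19 and Tnfsf13b in fibroblast-like cells, and Ccl21a and Ltbr in endothelial-like cells. The leading class is the one with the highest level over both libraries among the 11 classes with at least 20 cells in each. It was fixed by the gene's own levels, so these places are a description.

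**Figure D1:**
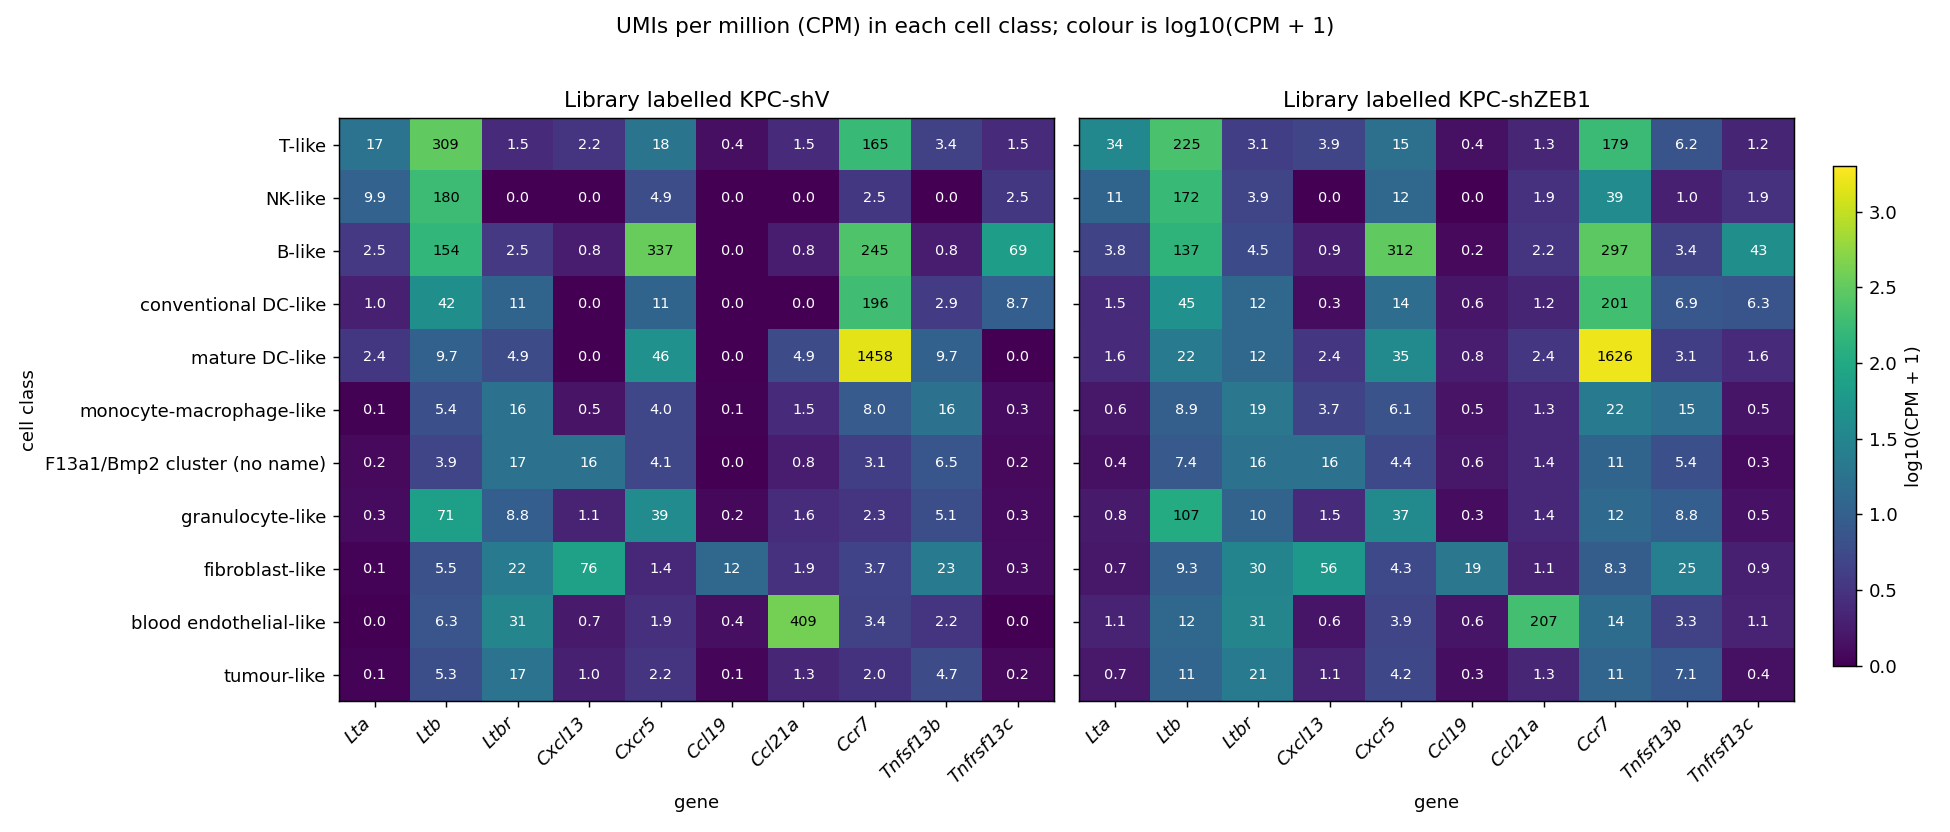
Level of each gene (columns, CPM printed in each cell, colour log10 of CPM + 1) in the 11 cell classes (rows) of the library labelled KPC-shV (left) and the library labelled KPC-shZEB1 (right). Ccr7 in mature dendritic-like cells stands at 1458 and 1626 CPM, and granulocyte-like cells hold Ltb at 71.4 and 107 CPM and Cxcr5 at 38.6 and 37.2 CPM.

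Where a gene's level was highest was not always where most of its UMIs lay. Granulocyte-like cells, the most numerous class, held 51.5% and 28.0% of Ltb UMIs, and T-like cells held 26.1% and 34.1%. Cxcr5 was split in the same way, with 56.7% and 19.2% of its UMIs in granulocyte-like cells and 25.6% and 53.8% in B-like cells. Tumour-like cells held 39.3% and 34.9% of Ltbr UMIs. Fibroblast-like cells held 84.0% and 63.8% of Cxcl13.

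**Figure D2:**
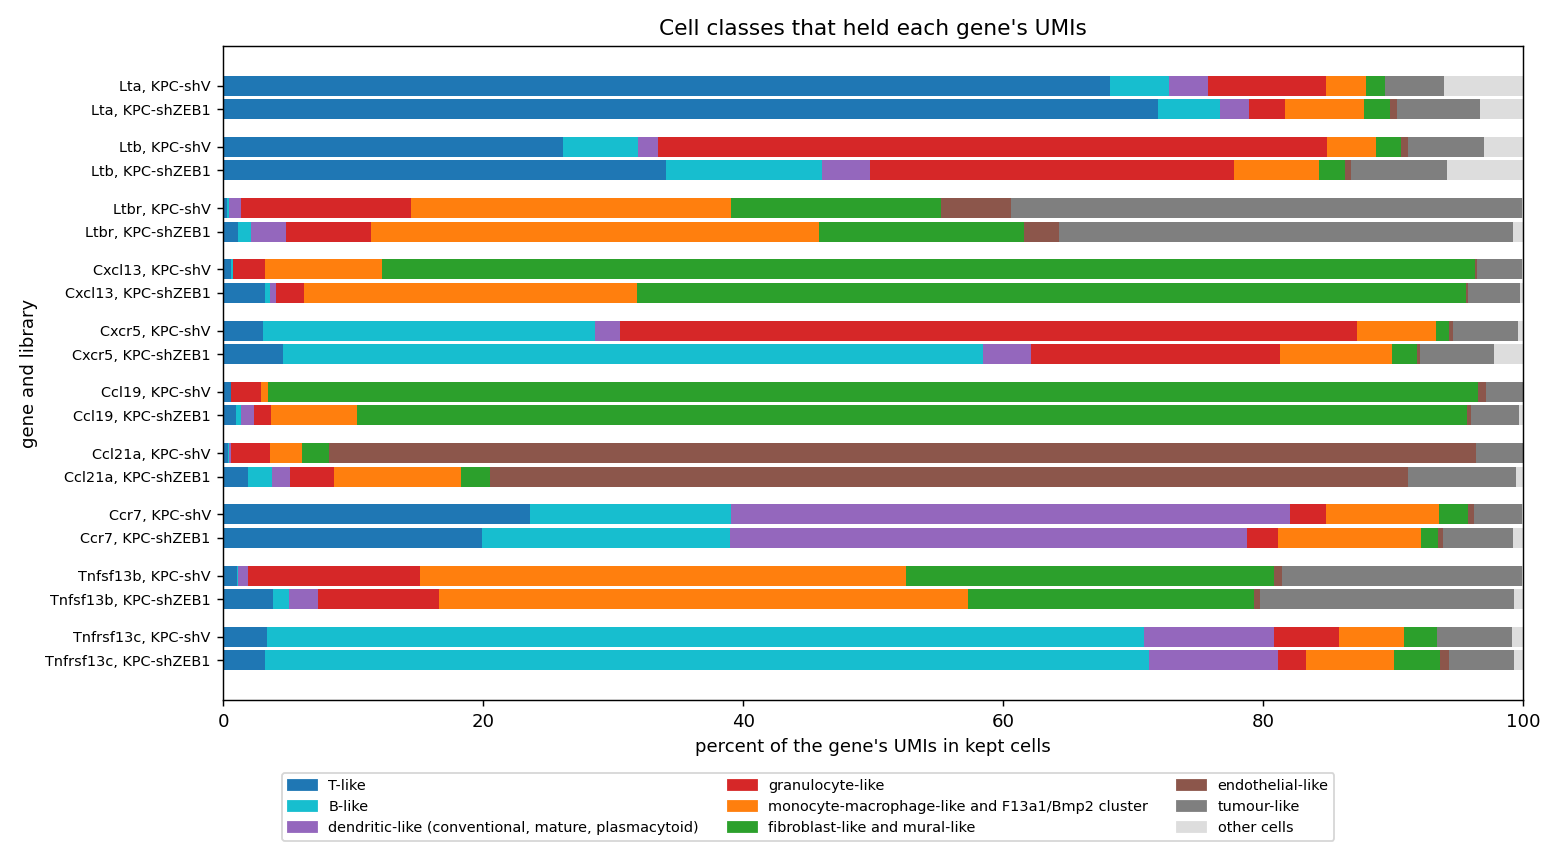
Share of each gene's UMIs (percent of the UMIs in kept cells, bars adding to 100) by cell class, with the library labelled KPC-shV above the library labelled KPC-shZEB1 for each gene. Ltb and Cxcr5 have the widest granulocyte-like segments, 51.5% and 56.7% in the library labelled KPC-shV.

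Lta, which encodes the secreted and complexed alpha chain of lymphotoxin, was rare, with 66 and 360 UMIs over all kept cells, or 0.652 CPM (0.504–0.830) and 3.03 CPM (2.72–3.36). In T-like cells it had 45 and 259 UMIs, which is 16.8 CPM (12.3–22.5) and 33.5 CPM (29.6–37.9), a ratio of 2.00 (1.45–2.80). The share of T-like cells with an Lta UMI went the other way, at 7.43% (30 cells) and 5.19% (66 cells), or 1.98% and 1.02% once cells were thinned to a common depth of 1000 UMIs. Most of the Lta UMIs lay in a few cells. In the library labelled KPC-shZEB1 the 7 T-like cells with at least 10 Lta UMIs held 67.2% of them, with 54 and 39 in the highest pair, whereas no T-like cell of the library labelled KPC-shV exceeded 7. Of the T and NK sub-clusters, the one led by cell cycle genes (Mki67, Top2a) held 13 Lta UMIs in 22 cells and 169 in 54 cells. Without that sub-cluster, an alternative chosen after seeing the data, the T-like levels were 14.02 and 13.7 CPM and the ratio was 0.977 (0.646–1.51). A CD4 T-like sub-cluster with Dgki, Csf2 and Tnfsf11 among its leading genes also held Lta, at 40.0 CPM (8 UMIs) and 82.2 CPM (43 UMIs).

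Ltb, the membrane anchor of the lymphotoxin complex, was at 309 CPM (288–331) and 225 CPM (215–236) in T-like cells, with 827 and 1737 UMIs. Its ratio there was 0.729 (0.670–0.792), and the share of T-like cells with a UMI was 71.3% and 57.0%, or 25.7% and 18.9% after thinning. Both measures were lower in the library labelled KPC-shZEB1. Regulatory T-like cells held the highest Ltb level of the T-like subsets, 649 and 441 CPM, above gamma-delta T-like cells at 355 and 270 CPM and CD4 T-like cells at 303 and 310 CPM. CD8 T-like cells were at 289 and 221 CPM, and naive T-like cells were lowest at 190 and 109 CPM. The counting intervals of the gamma-delta, CD4 and CD8 T-like levels overlapped in the library labelled KPC-shV. NK-like cells held 180 and 172 CPM and B-like cells 154 and 137 CPM, with intervals that overlap between the libraries in both classes. Among T-like cells with an Lta UMI, 86.7% and 78.8% also had an Ltb UMI, against 70.1% and 55.8% of the rest, but the cells with Lta were deeper, with medians of 9304 and 8870 UMIs against 5209 and 4761.

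Ltb was also present in granulocyte-like cells, at 71.4 CPM (68.0–75.0) and 107 CPM (102–113), a ratio of 1.498 (1.40–1.61). Tumour-like cells, which should lack the gene, stood at 5.29 and 10.9 CPM. They were deeper, with medians of 23416.5 and 23716 UMIs per cell against 3147 and 2912.5 in granulocyte-like cells. The part of depth in this difference was not tested. Granulocyte-like cells with a UMI of Cd3e, a T cell receptor subunit, numbered 40 of 6862 and 77 of 4292, against 1188 and 988 with Ltb. Cd3e was found in 0.842% and 1.42% of the granulocyte-like cells with Ltb and in 0.529% and 1.91% of the rest. By cluster, Ltb was lowest in the granulocyte-like cluster led by Mreg and Ero1l, at 28.5 and 38.2 CPM. The cluster led by the interferon-induced genes Rsad2, Slfn4 and Ifit1 was at 96.4 and 187 CPM (ratio 1.94, 1.68–2.25), and the cluster led by Retnlg and S100a9 at 111 and 113 CPM (ratio 1.02, 0.873–1.19). The ratio over all granulocyte-like cells therefore mixes clusters that differed in their own ratios, and the clusters also differed in size.

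**Figure D3:**
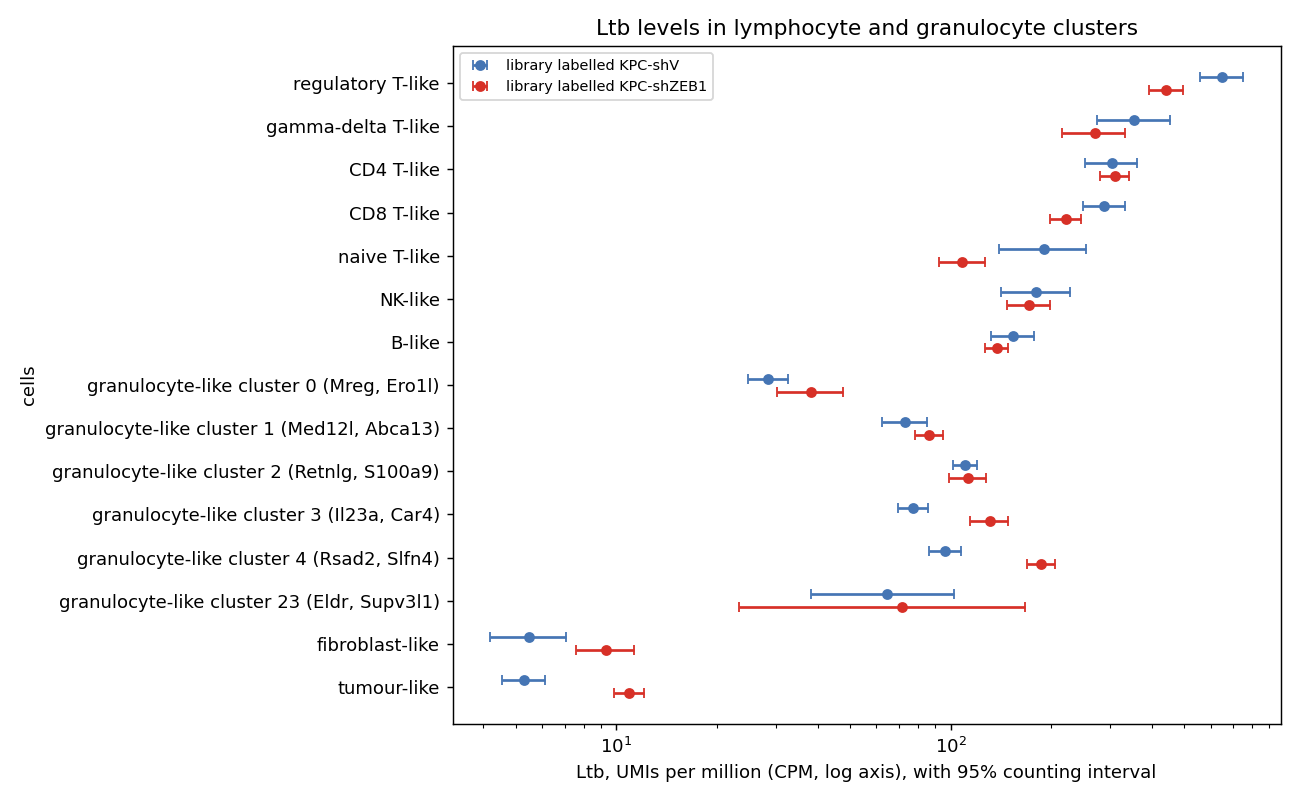
Ltb level (CPM, log axis) in T-like subsets, NK-like and B-like cells, granulocyte-like clusters with their 2 leading genes, and fibroblast-like and tumour-like cells; points are libraries and bars 95% counting intervals. Regulatory T-like cells sit highest at 649 and 441 CPM, and every granulocyte-like cluster drawn lies above the 5.29 and 10.9 CPM of tumour-like cells. Tumour-like cells were deeper than granulocyte-like cells, and the part of depth in this difference was not tested.

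Ltbr, the receptor for the lymphotoxin complex, was spread over non-lymphoid cells. Endothelial-like cells held 31.0 CPM (24.7–38.4) and 30.9 CPM (23.4–40.2), with 83 and 56 UMIs and a ratio of 0.998 (0.698–1.42). Fibroblast-like cells were at 21.7 and 30.1 CPM (ratio 1.39, 1.17–1.65), tumour-like cells at 17.3 and 21.1 CPM (ratio 1.22, 1.10–1.36) and monocyte-macrophage-like cells at 16.0 and 19.1 CPM (ratio 1.20, 1.04–1.38). T-like cells held 1.49 and 3.11 CPM and B-like cells 2.54 and 4.48 CPM. NK-like, T-like and B-like cells held the lowest Ltbr levels of the 11 classes in both libraries, while the order of the endothelial-like and fibroblast-like levels was within counting error in the library labelled KPC-shZEB1.

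Cxcl13, the B cell chemokine, was found in very few fibroblast-like cells. Their level was 76.2 CPM (71.1–81.5) from 832 UMIs and 55.8 CPM (51.5–60.5) from 600 UMIs, a ratio of 0.733 (0.659–0.815). In each library 10 fibroblast-like cells had at least 10 UMIs, 2.77% and 2.65% of the class, and these held 95.8% and 90.7% of its Cxcl13. The single highest cell held 277 and 192 UMIs. With the 5 highest cells of each library left out the ratio was 1.01, so the difference in level rested on those cells, and the share of fibroblast-like cells with any UMI was 8.59% and 10.8%.

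The Cxcl13-rich fibroblast-like cells differed from those without a Cxcl13 UMI in some of the other genes looked at, in both libraries. Cxcl12, which binds CXCR4, was at 1489 and 2254 CPM in them against 285 and 353 CPM. Ccl19 was at 51.7 CPM (26.7–90.2) and 104 CPM (65.2–157) against 10.2 and 17.1 CPM. Il33, an alarmin of stromal cells, was at 534 and 1182 CPM against 235 and 380 CPM, and Vcam1 was at 633 and 544 CPM against 302 and 253 CPM. Col1a1 was lower in them, at 3336 and 3909 CPM against 10040 and 12880 CPM. Pdpn had no common direction, at 2156 and 529 CPM against 1145 and 1504 CPM. Ltbr had none either, at 25.8 and 14.2 CPM against 21.7 and 29.5 CPM. Relb was lower in them, at 34.4 and 61.4 CPM against 78.8 and 99.8 CPM. Its intervals overlapped in the library labelled KPC-shZEB1. For Nfkb2, at 60.3 and 66.2 CPM against 39.8 and 50.9 CPM, the intervals overlapped in both libraries. These groups hold 10 cells each and were formed after the data were seen, and Cxcl12, Il33, Vcam1, Col1a1 and Pdpn were picked then as well.

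Cxcl13 was also found outside fibroblasts. A cluster of 498 and 710 cells led by F13a1, Bmp2, Fcna, Ccl8 and Lyve1, which detected 6 of 7 monocyte-macrophage markers and was left unnamed, held 16.4 and 16.3 CPM. In it 4 cells of each library had at least 10 UMIs. Monocyte-macrophage-like cells held 9 UMIs (0.484 CPM) and 115 UMIs (3.69 CPM), of which 83 lay in 3 cells of the library labelled KPC-shZEB1. T-like cells held 6 and 30 UMIs, 2.24 and 3.89 CPM, against 0.973 and 1.10 CPM in the deeper tumour-like cells. What part depth had in that difference was not tested. Among the T-like cells, 1 cell held 4 of the 6 UMIs and 1 cell 17 of the 30.

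Cxcr5, the CXCL13 receptor, was highest in B-like cells at 337 CPM (305–372) and 312 CPM (296–329), with 398 and 1392 UMIs and a ratio of 0.926 (0.827–1.04). It was detected in 64.9% and 59.2% of them. T-like cells held 17.6 and 15.4 CPM, with a UMI in 8.42% (34 cells) and 7.15% (91 cells). Among those T-like cells, Pdcd1 was detected in 17.6% and 28.6%, against 35.9% and 29.7% of the T-like cells without Cxcr5. The other follicular helper T cell genes looked at were each detected more often in the T-like cells with Cxcr5. Bcl6 was found in 52.9% and 54.9% against 45.7% and 40.3%, and Sh2d1a in 32.4% and 42.9% against 23.8% and 26.3%. Icos was found in 73.5% and 70.3% against 66.2% and 67.6%, and Il21 in 2 and 5 cells, 5.88% and 5.49% against 2.43% and 2.62%. The cells with Cxcr5 were deeper, with medians of 7992.5 and 6290 UMIs against 5192 and 4769, and the part of depth in these shares was not tested. Mature dendritic-like cells held 46.2 and 35.4 CPM.

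Granulocyte-like cells held Cxcr5 at 38.6 CPM (36.1–41.3) and 37.2 CPM (34.0–40.7), a ratio of 0.964 (0.862–1.08), against 2.23 and 4.23 CPM in tumour-like cells. The latter were deeper, with medians of 23416.5 and 23716 UMIs per cell against 3147 and 2912.5. What part depth had in this difference was not tested. Cxcr5 of the granulocyte-like cells was concentrated in the cluster led by Retnlg, S100a9, S100a8 and Cxcr2, genes of mature neutrophils, at 96.1 and 111 CPM. The clusters led by Mreg and by Med12l were at 14.5 and 17.9 CPM and at 13.6 and 13.3 CPM. A UMI of the B cell gene Cd79a was present in 60 and 148 granulocyte-like cells, against 638 and 381 with Cxcr5, and only 5 and 16 cells had both. The count tables do not tell where in the 50091-base gene model these reads lay.

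Ccr7, the receptor that guides naive T cells and dendritic cells to lymphoid tissue, was concentrated in mature dendritic-like cells. Mature dendritic-like cells held 1458 CPM (1344–1579) and 1626 CPM (1557–1697), with 600 and 2067 UMIs, a ratio of 1.12 (1.02–1.22) and a UMI in 94.6% and 97.0% of cells. B-like cells were at 245 and 297 CPM (ratio 1.21, 1.06–1.38), conventional dendritic-like cells at 196 and 201 CPM (ratio 1.03, 0.876–1.21) and T-like cells at 165 and 179 CPM (ratio 1.09, 0.974–1.21). Within each of these classes the level differed little between the libraries, while over all kept cells it was 18.5 and 58.3 CPM, a ratio of 3.15 (2.99–3.32). With the pooled class levels held fixed, the classes' shares of all UMIs alone gave 2.17. Cells of these classes were more numerous in the library labelled KPC-shZEB1, while their median UMIs were close, at 5357 and 4877 in T-like, 3736 and 3417.5 in B-like and 10322 and 11192 in mature dendritic-like cells.

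The T-like subsets differed in Ccr7. Naive T-like cells held 343 and 390 CPM, with a UMI in 60.8% and 76.2% of cells. Regulatory T-like cells held 412 CPM (117 UMIs) and 205 CPM (130 UMIs), a ratio of 0.497 (0.384–0.644), at nearly the same share of cells, 27.4% and 26.6%. Classes with little Ccr7 also had more of it in the library labelled KPC-shZEB1. Tumour-like cells went from 2.00 to 10.9 CPM (ratio 5.42) and granulocyte-like cells from 2.28 to 12.2 CPM (ratio 5.37). In tumour-like cells Ltb and Cxcr5 had ratios of 2.06 and 1.89. Lta was also higher there, with 3 and 23 UMIs, and each of these differences rests on low levels. In a further alternative, the level of the class that held least of a gene was subtracted in each library. The ratio was then 1.108 for Ccr7 in mature dendritic-like cells and 0.9166 for Cxcr5 in B-like cells. In T-like cells it was 0.7136 for Ltb and 1.997 for Lta. The subtracted levels were small beside those of the leading classes, so these ratios could move little and nothing is drawn from them.

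Ccl19, a CCR7 ligand of reticular stroma, was found in fibroblast-like cells at 11.99 CPM (10.03–14.2) from 131 UMIs and 19.5 CPM (16.9–22.3) from 209 UMIs, a ratio of 1.62 (1.30–2.03). The ratio ranged from 1.348, as a mean of per-cell values, to 4.399, with each library clustered alone. Unlike Cxcl13, it was spread thinly, with a UMI in 16.3% and 23.0% of the cells and no cell above 15 UMIs. After thinning the shares were 2.22% and 2.12%, from 8 cells in each library. Mural-like cells, too few to be counted among the classes above, held 31 UMIs in 14 cells and 48 UMIs in 11 cells, but these came from 3 cells and 1 cell. Among fibroblast-like cells with Cxcl13, 25.8% and 41.5% had a Ccl19 UMI, against 15.5% and 20.8% of the rest, at median depths of 25850 and 25789 UMIs against 29599 and 28196. By share of cells with a UMI, Tnfsf13b had no common direction in the same cells. It was at 25.8% against 43.3% in the first library and 61.0% against 39.8% in the second. In the fibroblast-like cells with at least 10 Cxcl13 UMIs its level was 43.04 CPM (20.64–79.16) and 99.25 CPM (61.44–151.7). Those without a Cxcl13 UMI held 22.99 CPM (20.12–26.15) and 22.89 CPM (19.97–26.12), so the intervals overlapped in the library labelled KPC-shV.

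Ccl21a, the CCR7 ligand of lymphatic vessels and high endothelial venules, gave the widest apparent difference downward and rested on the fewest cells. Endothelial-like cells held 1095 UMIs, 409 CPM (385–434), and 375 UMIs, 207 CPM (187–229), a ratio of 0.507 (0.4495–0.570). Of 123 endothelial-like cells in the library labelled KPC-shV, 6 held 99.7% of these UMIs, with 647, 190, 149, 53, 34 and 19 each. Of 82 in the library labelled KPC-shZEB1, 3 held 99.2%, with 130, 124 and 118 each. All 9 cells had UMIs of each of the 5 lymphatic endothelial markers Prox1, Flt4, Mmrn1, Lyve1 and Reln, although the cluster as a whole was named from blood endothelial markers. The endothelial-like cells with no lymphatic marker had 1 and 2 Ccl21a UMIs in 36 and 32 cells.

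The direction depended on which cells were kept. Over every deposited barcode, 6 barcodes of the library labelled KPC-shV had at least 10 Ccl21a UMIs, as had 7 of that labelled KPC-shZEB1, and all 13 had the 5 lymphatic markers. The doublet score left out 4 of the latter, with 281, 55, 46 and 10 UMIs. With no doublet removal the endothelial-like ratio was 0.970, with the looser cell filter 2.82 and with no upper limit on UMIs 2.10. Among the kept endothelial-like cells with at least 3 of the 5 markers, 10 and 5 cells, the levels were 3717 and 3297 CPM and the ratio was 0.887 (0.786–0.999). No direction is therefore given for Ccl21a.

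**Figure D4:**
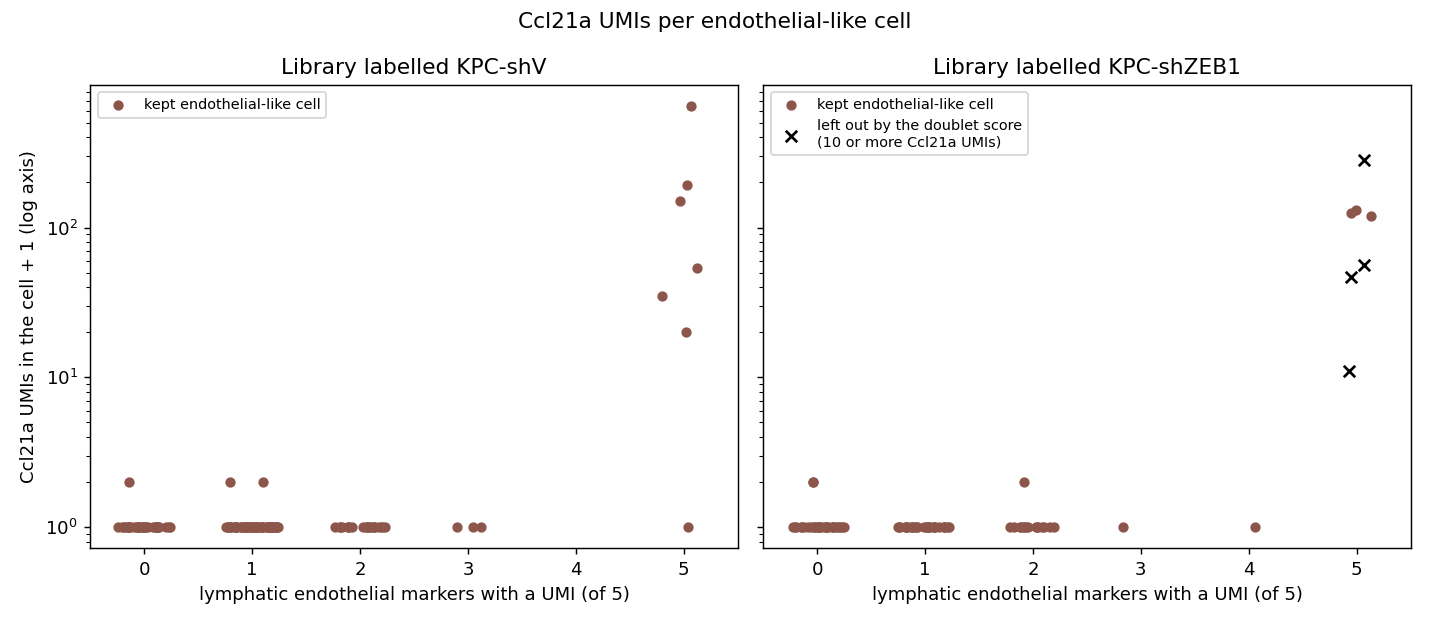
Ccl21a UMIs in each endothelial-like cell (UMIs + 1, log axis) against the number of 5 lymphatic endothelial markers with a UMI in that cell, for both libraries; points are shifted sideways at random within each number. High counts occur only in cells with all 5 markers, in 6 kept cells on the left and in 3 kept and 4 left-out cells (crosses) on the right.

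Tnfsf13b, which encodes BAFF, was at 22.7 CPM (19.96–25.7) and 25.3 CPM (22.4–28.5) in fibroblast-like cells, with 248 and 272 UMIs and a ratio of 1.12 (0.935–1.33), which was 2.054 with each library clustered alone. It was detected in 41.8% and 42.1% of them. Monocyte-macrophage-like cells held 16.1 and 15.03 CPM (ratio 0.935, 0.807–1.09), and 33.8% and 37.4% of all Tnfsf13b UMIs. Granulocyte-like cells were at 5.12 and 8.78 CPM (ratio 1.71, 1.32–2.23) and tumour-like cells at 4.66 and 7.09 CPM (ratio 1.52, 1.24–1.87).

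Tnfrsf13c, the BAFF receptor of B cells, was at 68.6 CPM (54.4–85.2) from 81 UMIs and 42.8 CPM (36.9–49.3) from 191 UMIs in B-like cells, a ratio of 0.624 (0.479–0.820). A UMI was present in 21.3% (16.7–26.5) and 13.1% (11.2–15.1) of them, but in 4.47% and 4.32% after thinning. Over all kept cells the gene had a ratio of 1.99 (1.60–2.49), in the opposite direction, and the classes' UMI shares alone gave 2.36. Cxcr5 and Ccr7, the other B-like genes of the set, did not share the lower level within B-like cells.

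Over all kept cells, 3 of the 10 genes had a ratio of at least 1.5 (Lta, Ccr7 and Tnfrsf13c) and 1 had a ratio lower by at least as much (Ccl21a, whose ratio was 1.465 with the looser cell filter and 1.141 with no upper UMI limit). Of 19317 genes with at least 30 UMIs, 12.9% passed in the first direction and 7.08% in the second, and the members' median log2 ratio was 0.48 against 0.06 for all those genes. In the leading classes the count was 2 higher (Lta and Ccl19) and 2 lower (Ccl21a, for which no direction is given above, and Tnfrsf13c), with a median log2 ratio of -0.06. The shares of genes past 1.5-fold in either direction in those classes were 12.8% in T-like, 16.8% in B-like, 13.4% in fibroblast-like, 17.1% in endothelial-like and 24.1% in mature dendritic-like cells, against 4 of the 10 members. None of the 4 kept its side of 1.5-fold under every alternative. Lta came inside it without the cell cycle sub-cluster and Ccl21a among cells with lymphatic markers. Ccl19 came inside it with no upper UMI limit (1.398) and as a mean of per-cell values (1.348), and Tnfrsf13c with no doublet removal (0.6741) and without the 5 cells with the most UMIs (0.7201).

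**Figure D5:**
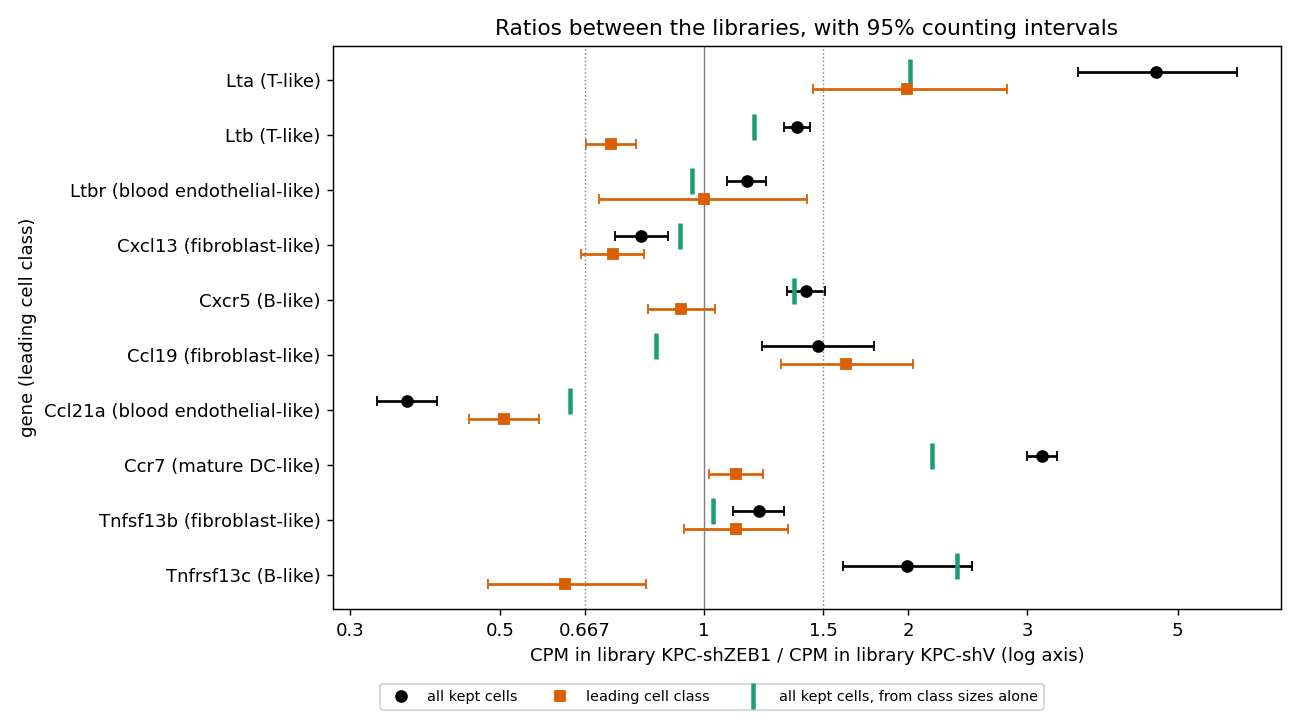
Ratio of CPM, library labelled KPC-shZEB1 over library labelled KPC-shV (log axis), for each gene over all kept cells (circles) and in its leading class (squares), with 95% counting intervals; green ticks are the ratio that the classes' shares of all UMIs alone give and dotted lines mark 1.5-fold. Ccr7 lies at 3.15 over all cells and 1.12 in mature dendritic-like cells, and Tnfrsf13c at 1.99 and 0.624.

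Related genes were taken from 6 lists. Over all kept cells 12.9% of all measured genes were at least 1.5-fold higher and 7.08% lower, with a median log2 ratio of 0.06. The list counts below are to be read beside these shares. Of the germinal centre and follicular T cell list, 6 of 10 were at least 1.5-fold higher over all kept cells and none lower, with a median log2 ratio of 1.19. Il21 (ratio 4.29) and Sh2d1a (2.99) were highest, and Bcl6, the germinal centre regulator, had a ratio of 0.742. Bcl6 was highest in granulocyte-like cells, at 298.5 and 276.3 CPM, with a ratio of 0.926 (0.889–0.964) there. Within their leading classes Fcer2a and Cr2 had ratios of 0.986 and 0.873 in B-like cells, and Icos and Pdcd1 of 0.918 and 0.836 in T-like cells. Il21 and Sh2d1a had ratios of 1.62 (1.16–2.31) and 1.36 (1.15–1.62) in T-like cells. The share of T-like cells with an Il21 UMI was nearly the same, 2.72% (11 cells) and 2.83% (36 cells). The top 5 cells held 69.8% and 42.3% of these Il21 UMIs. For Sh2d1a the share was 24.5% and 27.5%.

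Of the high endothelial venule and lymphocyte homing list, 3 of 12 were higher and 3 lower. Chst4 (3.15, from 10 and 37 UMIs, mostly in tumour-like cells), Itga4 (2.22) and Itgb7 (1.84) were higher, and Glycam1 (0.139) and Madcam1 (0.272), addressins on which lymphocytes roll, were lower together with Selp (0.492). In the class where each was highest, Chst4 had a ratio of 4.17 (tumour-like), Itga4 of 0.939 (mature dendritic-like), Itgb7 of 0.790 (T-like) and Selp of 0.768 (endothelial-like). In endothelial-like cells Madcam1 was at 137 and 60.8 CPM (ratio 0.442, 0.354–0.549) with a UMI in 31.7% and 20.7% of cells. The top 5 cells held 38.3% and 67.3% of these Madcam1 UMIs. Glycam1 had 48 UMIs in 6 endothelial-like cells and 7 UMIs in 5. Of the lymphoid chemokine, oxysterol and sphingosine guidance list, Ccr6 (3.00) and Gpr183 (2.01), the oxysterol receptor, were higher and Ccl20 (0.524) was lower, out of 10. Ccl20, the CCR6 ligand, lay in tumour-like cells at 18.4 and 9.93 CPM, and Ccr6 in B-like cells at 226 and 209 CPM. Gpr183 in B-like cells had a ratio below 1, at 542 and 399 CPM (0.736, 0.672–0.807).

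Of the lymphoid stroma and inducer cell list, Il7r (2.18, and 1.14 in T-like cells) was higher and Enpp2 (0.466) was lower, out of 8. Enpp2, which encodes the lysophospholipase autotaxin, was at 64.5 and 14.5 CPM in fibroblast-like cells (ratio 0.225, 0.188–0.268), with a UMI in 23.0% and 21.2% of them. Of the tumour necrosis factor superfamily list, 2 of 9 measured genes were higher, Tnfsf11 (1.61, and 1.13 in T-like cells) and Tnfrsf14 (1.54, and 1.01 in monocyte-macrophage-like cells), and none was lower. Tnf, which sits between Ltb and Lta, was at 799.8 and 800.2 CPM in granulocyte-like cells. None of the 8 genes of the non-canonical NF-kappaB list passed 1.5-fold over all kept cells, with ratios from 0.948 (Birc3) to 1.37 (Map3k14), and Relb was highest in mature dendritic-like cells at 571 and 658 CPM.

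Across 22 points, 11 classes in each of 2 libraries, the genes whose log2(CPM + 1) profile was most like that of Lta were Cd247, Lef1 and Cd27, with a Pearson r of 0.954 for the first. Those for Ltb were Acap1, Zfp831 and Agap2 (0.949), for Ltbr Phldb1, Gas2l1 and Map3k20 (0.913), and for Tnfsf13b Clmp, Mmp19 and Vcan (0.860). The chemokine Cxcl13 was most like Adam33, Fgf9 and Gm14403 (0.937), Ccl19 most like Snhg11, Slit3 and Gm26911 (0.977), and Ccl21a most like Gja4, Madcam1 and Myct1 (0.975). Cxcr5 was most like 2310015A10Rik, Washc4 and B3gnt5 (0.906), Tnfrsf13c most like H2-Ob, Ighd and Bcl11a (0.948), and Ccr7 most like Gm13561, Btla and Cacna1s, each at 0.910 or above. The points share 2 libraries and their depths, and these correlations are descriptions.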

How the data were processed

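Single-cell RNA was counted in 2 libraries, 1 per group. The authors made the deposited counts, whole UMI counts per gene and barcode, with Cell Ranger 7.0.1 against mm10, per the submitters' processing notes. Whether introns were counted is not given in the sources used here. The members and gene lists were chosen with earlier results of these data known.

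Barcodes were kept with 1000 to 60000 UMIs, 500 or more genes and a mitochondrial share of up to 15%, and those with a Scrublet score above 0.2 were removed, without a replicate or alignment step. Cells of both libraries were clustered together in scanpy 1.11.5 (Leiden, resolution 1) without the 68 member and list genes, and clusters were called X-like from marker lists. The naming rules were changed after names had been seen. Counts were summed by class and library. With 1 library per group there is no test. Levels have exact Poisson intervals, ratios exact conditional intervals and shares Clopper-Pearson intervals (scipy 1.17.1), which cover counting error only. A ratio counted as past the fold at 1.5 in either direction with at least 30 UMIs over both libraries. The ratio step was tested on simulated data. The text names all 10 members, up to 4 highest and lowest genes of each list (some with values in the class where they are highest), Zeb1, and the 3 genes most alike each member. Genes named otherwise were chosen after their values were seen. One gene of the lists is counted but not reported here by name.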

Additional observations from a re-analysis of the deposited data

Results flagged for a closer look

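Ccl21a was found in barcodes that the cell filters had left out. In the 1196 barcodes left out of the KPC-shV library it had 34 UMIs, and in the 1167 left out of the KPC-shZEB1 library 417 UMIs, or 44.0% of that library's Ccl21a. The second level was 14.9 times the first (10.5–21.8, counting error only). Of the 417 UMIs, 392 lay in 4 barcodes that the doublet score had removed, and each of these had UMIs of all 5 lymphatic endothelial markers.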

How the results depend on the processing

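No paired analysis was possible because each group has 1 library. Of 152 values of single member ratios under the alternatives, 119 stayed within their counting interval and 27 moved outside it. The other 6 changed direction from a value past 1.5-fold. Cxcl13, which was not past it, also changed direction, to 1.135 over all cells as a mean of per-cell values. The Ccl21a ratio over all cells was 1.465 with the looser cell filter and 1.141 with no upper UMI limit, and in endothelial-like cells 2.822 and 2.103. The Lta ratio in T-like cells was 0.9469 as a mean of per-cell values and 0.9773 without the cell cycle sub-cluster, an alternative chosen after seeing the data, as were the split by lymphatic markers and the use of every deposited barcode. The number of members past 1.5-fold in their leading class, 4, was 2 with no doublet removal and 2 without the 5 cells with the most UMIs, 3 with no upper UMI limit and as a mean of per-cell values, and 6 with each library clustered alone. With each library clustered alone, the fibroblast-like ratios of Cxcl13, Ccl19 and Tnfsf13b were 1.625, 4.399 and 2.054, and at resolution 2 they were 1.054, 2.302 and 1.466. Membership of the fibroblast-like class changed between these settings. It held 361 and 378 cells in the main setting, 841 and 395 with each library clustered alone, and 882 and 604 at resolution 2. Its Cxcl13 UMIs were 832 and 600, 850 and 600, and 852 and 607 in the same order. With each library clustered alone, no mural-like class was named in the library labelled KPC-shZEB1. The part of class membership in these ratios was not tested. Members with few UMIs, such as Lta and Tnfrsf13c, are limited by depth, and no interval here covers the difference between tumors.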
